A study of Homo sapiens with 7 samples.

Results

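The genes that write and erase DNA methylation, and the maintenance reader UHRF1, were examined for CTCF peaks in K562 cells. The cells were kept with or without the G-quadruplex (G4) ligand pyridostatin (PDS). The genes were taken by name and comprised 7 of the 20163 protein-coding genes of the annotation, namely DNMT1, UHRF1, DNMT3A, DNMT3B, TET1, TET2 and TET3. A peak was assigned to a gene when it overlapped the gene record or lay within 20 kb of it on the human genome build hg19 (GRCh37). The series addresses whether G4s affect the recruitment of CTCF. It held 7 samples of K562, an established human leukaemia cell line, with CTCF (2 samples) and IgG (1 sample) precipitated from untreated control cells, and CTCF (2 samples) and IgG (2 samples) from cells kept with 10 μM PDS for 24 h. Chromatin immunoprecipitation followed by sequencing (ChIP-seq) gave 1 peak list per condition, called by the authors on both CTCF replicates over IgG. All values therefore describe 2 lists, no SD or test between conditions can be given, and the sequencing depth is unknown. The control list held 33094 peaks and the PDS list 32917 peaks.

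DNA methylation in mammals is carried mostly by the cytosines of CpG dinucleotides. DNMT3A and DNMT3B set new methyl groups, DNMT1 copies the pattern onto the daughter strand after replication with the help of UHRF1, and the TET enzymes oxidize methylcytosine on the way to its removal. CTCF is a zinc-finger protein that organizes chromatin loops together with cohesin, and methylation of a CpG within its binding motif can impair its binding. A G4 is a 4-stranded structure of stacked guanine tetrads, and G4-forming sequences are common in the CpG-rich promoters of housekeeping genes.

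The control list placed 31 peaks at the 7 genes and the PDS list 28 peaks. All 7 genes had a control peak in the gene record or within 20 kb, as did 77.2% of all protein-coding genes. A PDS peak was found for 6 of the 7 genes, against 73.6% of all genes. The gene without one was TET2. In the control list TET3 had the most peaks, whereas TET3 and DNMT1 had equal numbers in the PDS list. The counts, control first, were 9 and 7 at TET3, 7 and 7 at DNMT1, 6 and 6 at DNMT3A, 4 and 5 at DNMT3B, 3 and 2 at UHRF1, 1 and 1 at TET1, and 1 and 0 at TET2. Relative to the length searched, the median over the 7 genes was 3.88 peaks per 100 kb in both lists, whereas the median over all protein-coding genes was 2.06 for control peaks and 1.95 for PDS peaks. The range over the members was wide, from 0.574 control peaks per 100 kb at TET1 to 5.51 at TET3, and up to 5.75 PDS peaks per 100 kb at DNMT3B. Of the 31 control peaks, 11 were intronic, 3 exonic and 2 promoter-proximal, with 5 upstream and 6 downstream of the gene. Of the 28 PDS peaks, 12 were intronic, 2 exonic and 2 promoter-proximal, with 5 upstream and 4 downstream. The remaining 4 control and 3 PDS peaks overlapped an upstream stretch of the DNMT1 gene record outside its canonical transcript. The canonical transcript is the one that the annotation marks as representative. The control peak from 10341961 to 10342200 met that stretch only at its outer edge, the start of the record at 10341962.

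**Figure D1:**
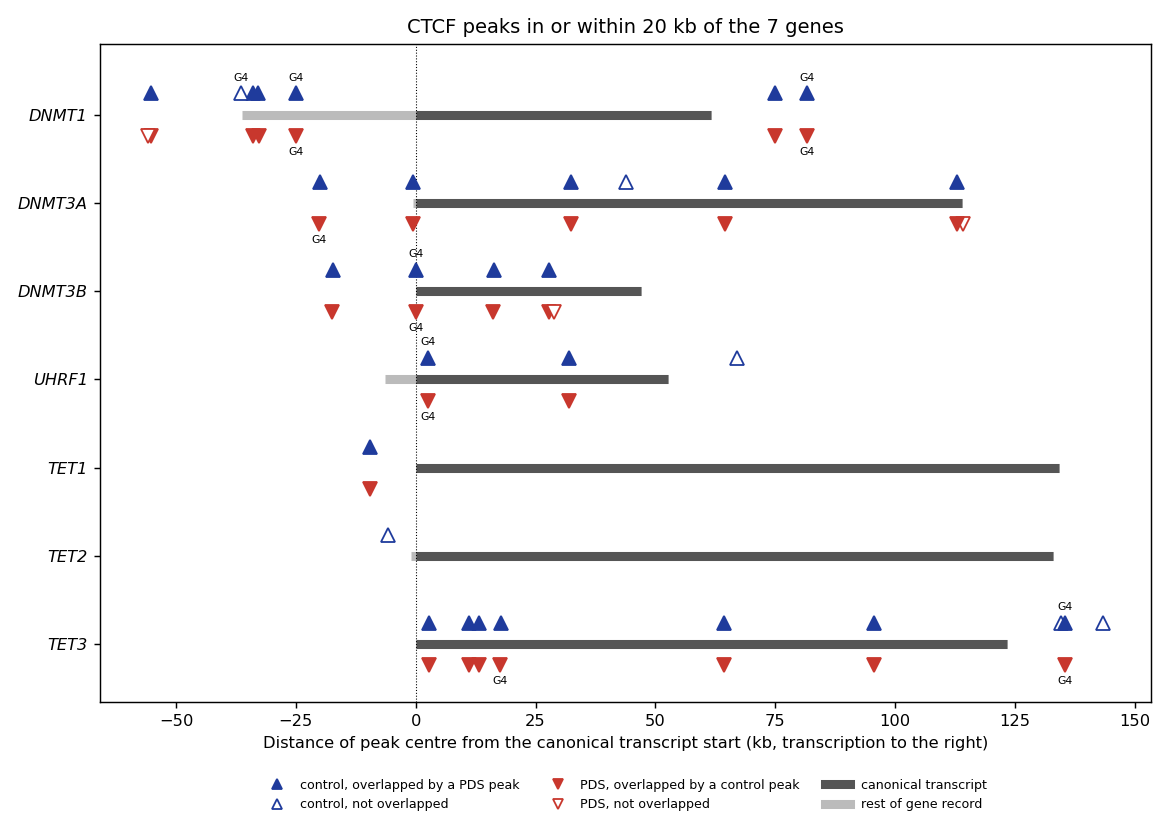
CTCF peaks at the 7 genes, plotted as the distance of the peak centre from the start of the canonical transcript in kb, with transcription to the right. Blue triangles above each gene stand for control peaks and red triangles below it for PDS peaks, open symbols have no overlapping peak in the other list, dark bars are canonical transcripts and light bars the rest of the gene record, and G4 marks peaks with a G4 motif. TET2 has 1 open control peak and no PDS peak, and most other symbols come in control and PDS pairs.

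A peak within 1 kb of the start of the gene record was present in the control list for 3 of the 7 genes (DNMT1, DNMT3A and DNMT3B), and for 22.2% of all genes. The PDS list had such a peak for 2 genes (DNMT3A and DNMT3B), and for 20.9% of all genes. The DNMT1 count depends on the record used. Its record begins 36333 bp upstream of the canonical start, at the start of the neighbouring gene S1PR2, so with canonical starts the count was 2 genes in either list. Of all genes with a distance, 22.8% had a control peak and 21.6% a PDS peak within 1 kb of that start. From the canonical start to the nearest peak, the distance was 0 bp at DNMT3B in both lists, 427 bp (control) and 307 bp (PDS) at DNMT3A, 2268 and 2088 bp at UHRF1, 2624 and 2614 bp at TET3, 9154 and 9194 bp at TET1, and 24812 and 24822 bp at DNMT1. At TET2 it was 5613 bp in the control list versus 324768 bp in the PDS list. Over all genes the median distance was 11668 bp (quartiles 1481 and 38861) for control peaks and 13299 bp (quartiles 1775 and 46268) for PDS peaks. DNMT1 was thus the only member beyond the all-gene median in the control list, and DNMT1 and TET2 were the members beyond it in the PDS list. In the PDS list, 5.01% of all genes had no peak within 300 kb of the canonical start, and TET2 belonged to them.

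**Figure D2:**
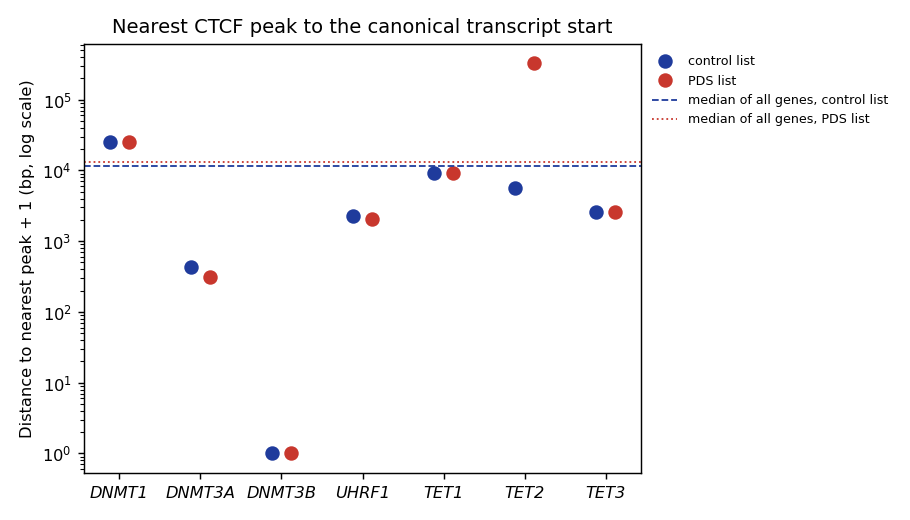
Distance from the canonical transcript start of each of the 7 genes to the nearest CTCF peak, as distance + 1 in bp on a log scale. Blue points are the control list, red points the PDS list, and the dashed and dotted lines are the medians of all genes, 11668 and 13299 bp before the addition of 1. The paired points coincide for most genes, and the PDS point of TET2 stands at 324768 bp.

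Each peak is described by its fold enrichment over IgG and by its rank by fold within its list (rank 1 is the strongest). A percentile of 100 is the strongest peak of a list. The labels give 1 control IgG sample, and the list does not tell if the control folds rest on any other. Folds of different lists may rest on different IgG samples and were not compared, so only ranks and percentiles within a list stand side by side. A G4 motif was a stretch of at least 4 runs of 3 or more G, separated by 1 to 7 nt, on whichever strand, which is a match of letters and not a measured structure. The bases between runs could themselves be G, so a long run of G could count as more than 1 run.

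DNMT1 (ENSG00000130816), the maintenance methyltransferase, occupies chromosome 19 from 10244018 to 10341962 on the minus strand, with its canonical start at 10305629. No peak of either list lay in the canonical transcript. Its 7 control and 7 PDS peaks flanked it on both sides. In each list 6 were shared, that is, overlapped a peak of the other list by at least 1 bp. The upstream peaks lay at least 24812 bp (control) and 24822 bp (PDS) from the canonical start. They were counted only because the gene record extends upstream of that start. A pair of shared sites lay downstream. The peak at the promoter of EIF3G, a subunit of a translation initiation factor, had a fold of 83.0 in the control list. It ranked 588 there, the highest control rank by fold among the members. In the PDS list it had a fold of 24.6 and rank 6182. By the p-value that the peak caller gave, the order was opposite, at percentiles 89.2 (control) and 95.6 (PDS). The next site, near a start of the purinergic receptor gene P2RY11, had a control fold of 40.2 (rank 6960) and a PDS fold of 24.1 (rank 6627). Its percentile by fold was nearly the same in both (79.0 and 79.9), and by p-value it was 84.9 and 96.2. Upstream of the canonical start, 3 shared sites lay within the gene record, 24932 to 34052 bp from that start in the control list. They ranked 22887, 22451 and 25207 in the control list. The PDS ranks were 20687, 16029 and 2010. The last of these sites was 600 bp wide and inside the S1PR2 gene. By fold it stood in the lower part of the control list (percentile 23.8) and near the top of the PDS list (percentile 93.9). By p-value its percentiles were close, 65.0 and 67.1.

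The most distant shared upstream site of DNMT1, 55322 bp before the canonical start, had the largest rank difference of all member peaks. It had a control fold of 13.5 (rank 28540) and a PDS fold of 41.0 (rank 754), percentiles of 13.8 and 97.7. By the p-value that the peak caller gave for enrichment over IgG, the same pair stood in the opposite order, at percentile 95.5 among control peaks and 76.0 among PDS peaks. Each list also had a DNMT1 peak of its own. The control list had a peak at the start of S1PR2, a receptor for sphingosine 1-phosphate, with a fold of 19.9, rank 23444 and 2011 bp to the nearest PDS peak. The PDS list had a 150 bp peak with a fold of 20.1 and rank 10932, only 241 bp from the nearest control peak. G4 motifs were found in 3 of the control peaks and 2 of the PDS peaks of DNMT1. The motifs of the sites present in both lists are shown because they let the match be read directly, 5′ to 3′ on the strand that holds the G runs, with those runs in capitals. The first lies near P2RY11 and the second upstream of DNMT1.
chr19:10223721-10223749 (plus strand): GGGtggcactGGGGGGtatggcGGGcGGG
chr19:10330562-10330583 (minus strand): GGGatGGGGGGtGGGGtGGGGG

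UHRF1 (ENSG00000276043), which binds hemimethylated CpG sites and brings DNMT1 to newly replicated DNA, lies on chromosome 19 from 4903092 to 4962165 on the plus strand, with its canonical start at 4909513. A shared site in intron 2, 2568 bp from the canonical start in the control list, had a control fold of 20.7 (rank 22792) and a PDS fold of 17.4 (rank 15251). A weaker shared site covered 61 coding bp of exon 6 in the control list, where it was 180 bp wide (fold 19.2, rank 24088). In the PDS list that site was 150 bp wide and lay in intron 5 (fold 8.35, rank 30235). A 120 bp control peak within the downstream neighbour KDM4B, a histone demethylase gene, had a fold of 23.3 and rank 20204, and the nearest PDS peak was 24651 bp away. The intron 2 site was the only member site that overlapped both a G4 motif and the CTCF consensus derived from ChIP-exo, a 15 bp motif, and it did so in both lists. The stretch from one to the other is shown because it places both elements on the sequence, with the G runs of the motif at the start and the consensus, on the minus strand, at the end in capitals. It was read 5′ to 3′ on the plus strand.
chr19:4911778-4911983: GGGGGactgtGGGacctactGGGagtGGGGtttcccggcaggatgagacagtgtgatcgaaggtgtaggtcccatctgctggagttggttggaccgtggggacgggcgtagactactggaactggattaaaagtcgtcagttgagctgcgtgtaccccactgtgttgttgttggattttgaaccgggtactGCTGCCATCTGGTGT

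DNMT3A (ENSG00000119772), a de novo methyltransferase that is recurrently mutated in myeloid leukaemia, lies on chromosome 2 from 25450724 to 25565459 on the minus strand, with its canonical start at 25564794. Of its 6 control and 6 PDS peaks, 5 were shared. The promoter peak covered the start of the gene record, 25565459, and had a control fold of 45.3 (rank 5097) and a PDS fold of 30.01 (rank 3020). It was among the strongest 20% of neither list by p-value (percentiles 67.6 and 78.3), although it was by fold (84.6 and 90.8). It held 38 CpGs over 480 bp in the control list versus 61 over 750 bp in the PDS list, with no G4 motif inside either peak. Within 1 kb of the peak there were 8 motifs for the control peak and 9 for the PDS peak. The peak in the last exon, exon 23, lay wholly in its untranslated part. It had a control fold of 65.9 (rank 1504) and a PDS fold of 20.9 (rank 9905), with the opposite order by p-value (percentiles 70.0 and 84.9). A shared site in intron 2 ranked 13339 and 10529 by fold (percentiles 59.7 and 68.0). The intron 4 site was weak by fold in both lists (15.3 and rank 27192, 9.27 and rank 29186). No peak marked the internal starts of the shorter isoform, from 25475001 to 25475180, where the nearest peak was at least 22941 bp away in the control list versus 22751 bp in the PDS list.

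The shared site upstream of DNMT3A, 19986 bp from its canonical start in the control list and within the long non-coding RNA gene ENSG00000289567, ranked 7090 in the control list versus 9747 in the PDS list. Its G4 motif lay within the PDS peak and 7 bp beyond the edge of the control peak. The control list alone had a 180 bp peak in intron 3 (fold 12.4, rank 29240), with 11251 bp to the nearest PDS peak. The PDS list alone had a 150 bp peak just past the end of the gene (fold 8.94, rank 29542), 941 bp from a control peak. The consensus match of intron 4 and the upstream motif are shown, the former with 7 flanking bases on either side and the consensus in capitals, the latter with its G runs in capitals, because these are the elements that these peaks hold. The consensus match contains 1 CpG.
Consensus of DNMT3A, chr2:25500265-25500279 (plus strand): cgggctcCCAGCAGGGGGCGCCtgctcgc
G4 motif upstream of DNMT3A, chr2:25585147-25585170 (plus strand): GGGaatGGGacagaGGGGacGGGG

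DNMT3B (ENSG00000088305), the other de novo methyltransferase, which is active mainly in early development, lies on chromosome 20 from 31350191 to 31397165 on the plus strand. It was the only member whose canonical start was itself covered by a peak. That promoter peak had a control fold of 33.2 (rank 10707) and a PDS fold of 11.7 (rank 26008), percentiles of 67.6 and 21.0. By p-value it stood at nearly the same percentile in both lists, 86.9 and 86.8. It had the highest ratio of observed to expected CpG of the member peaks in both lists, with 44 CpGs over 300 bp in the control peak and 50 over 350 bp in the PDS peak. The observed number was 0.952 and 0.931 times that expected from the base composition, respectively. The control peak overlapped 2 G4 motifs and the PDS peak 3. The additional motif lay 30 bp outside the control peak, and the PDS peak began 70 bp further upstream.

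The other shared sites of DNMT3B lay in intron 1, in intron 7 and 17350 bp upstream in the control list. The intron 1 site had a control fold of 43.9 (rank 5523) and a PDS fold of 22.2 (rank 8405). It held a consensus match with no CpG. The intron 7 site, 780 and 800 bp wide, was the widest member peak of either list. It ranked 18838 in the control list versus 1914 in the PDS list, percentiles of 43.1 and 94.2, but stood lower in the PDS list by p-value (83.1 and 74.5). The upstream site ranked low by fold in both lists (28392 and 29574) and stood in the middle of both by p-value (percentiles 50.8 and 49.5). A 100 bp PDS peak in intron 7, with a fold of 12.1 and rank 25331, had no overlapping control peak and lay 671 bp from one. The consensus match of intron 1 is shown for comparison with that of DNMT3A.
Consensus of DNMT3B, chr20:31366438-31366452 (minus strand): gcatcgcCCACCAGGGGGCACCgtgagct

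TET1 (ENSG00000138336), a dioxygenase that oxidizes methylcytosine and binds CpG-rich DNA by a zinc-finger domain, lies on chromosome 10 from 70320094 to 70454244 on the plus strand. Its single site lay 9484 bp upstream of the start in the control list, and no peak lay in its 134151 bp. The site had a control fold of 16.5 (rank 26142) and a PDS fold of 19.6 (rank 11683), percentiles of 21.0 and 64.5. By p-value the order was opposite (85.5 and 70.9). The peak was wide (660 and 600 bp) and poor in CpG, with 2 CpGs and a GC content of 45.3% and 45.2%. It held neither a G4 motif nor an exact consensus match. The window searched around TET1 had 8.61 G4 motifs per 100 kb, the lowest density of the 7 genes.

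TET2 (ENSG00000168769), the family member that is recurrently mutated in blood cancers, lies on chromosome 4 from 106067032 to 106200973 on the plus strand. Its only peak lay 4612 bp before the gene record in the control list. It was 240 bp wide, with a fold of 30.1 and rank 13087, which is percentile 60.5 by fold. By p-value it stood at percentile 18.5. The peak held no G4 motif and 5 CpGs. It did hold an exact consensus match, and this match contained 1 CpG. The whole peak is shown because it is the only site of the gene, with the consensus in capitals.
chr4:106062181-106062420 (plus strand): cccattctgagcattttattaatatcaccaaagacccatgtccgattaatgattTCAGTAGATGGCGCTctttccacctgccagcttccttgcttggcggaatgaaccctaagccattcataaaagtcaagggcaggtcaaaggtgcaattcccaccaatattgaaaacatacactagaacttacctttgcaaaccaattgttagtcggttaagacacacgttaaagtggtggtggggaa

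No PDS peak lay within 330381 bp of the TET2 control peak. The gene fell into a 2.38 Mb stretch, from 104012951 to 106392800, without any peak of the PDS list. The control list had 5 peaks in the same stretch. These 5 peaks were narrow, with a median width of 120 bp and a maximum of 240 bp, and 2 of them held the consensus. None belonged to the 50% of the control list with the smallest p-values. The stretch was closed on the far side of TET2 by a peak in PPA2, a pyrophosphatase gene, which was shared and ranked 6791 in the control list versus 28348 in the PDS list. Of the 32870 gaps between neighbouring PDS peaks, 103 were at least as long, and these made up 16.4% of the summed gap length, unassembled sequence included. They held 663 (3.29%) of the protein-coding genes. Chromosome 4 held 992 control peaks (3.0% of the list) and 827 PDS peaks (2.51%), and 67.0% of its control peaks were shared.

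TET3 (ENSG00000187605), the TET enzyme best known from the oocyte and zygote, lies on chromosome 2 from 74212037 to 74335303 on the plus strand. Of its 9 control peaks, 7 were shared, and all 7 PDS peaks were. Its intron 2 held 4 shared sites. The one nearest to the start, 2774 bp from it in the control list, ranked 23246 in the control list versus 3839 in the PDS list (percentiles 29.8 and 88.3), again with the opposite order by p-value (91.4 and 70.5). The next had a control fold of 67.5 (rank 1359) and a PDS fold of 23.6 (rank 7047), with percentiles of 59.5 and 70.9 by p-value. A 120 bp (control) and 100 bp (PDS) peak stood near the middle of both lists (rank 15592 and 16501). The last site of the intron covered 74229840, the start of an alternative coding transcript, in both lists. It had a control fold of 18.0 (rank 24956) and a PDS fold of 9.16 (rank 29288). By p-value the order was opposite (percentiles 7.76 and 36.7), the largest difference by p-value among the member pairs. With a GC content of 80.7%, the control peak there was the most GC-rich of the members. It overlapped no G4 motif, whereas the PDS peak began 200 bp further upstream and overlapped 1, which lay 96 bp outside the control peak.

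Further into TET3, the intron 4 site ranked 16297 in the control list versus 3431 in the PDS list. By p-value its order was opposite (percentiles 57.9 and 50.1). The exon 6 site covered 94 coding bp in the control list versus 76 in the PDS list and ranked 16627 and 14444. Downstream of the gene, a shared site with a G4 motif and 52 (control) or 58 (PDS) CpGs had a control fold of 36.1 (rank 8888) and a PDS fold of 11.9 (rank 25667). These are percentiles of 73.1 and 22.0, the largest negative difference among the member pairs, and by p-value its percentile was 84.8 and 89.4. The PDS peak also reached the processed pseudogene FNBP1P1. Both peaks without a PDS counterpart lay downstream. One was 120 bp wide (fold 8.36, rank 31444) and 371 bp from a PDS peak. The other was 540 bp wide (fold 17.5, rank 25356), overlapped the long non-coding RNA gene ENSG00000217702 and lay 3231 bp from one. The motifs at the alternative start and downstream are shown because the peak edges of the lists differ at the former and not in their motif at the latter. Capitals mark the G runs, and the motif at the alternative start has its 4 runs within 2 long stretches of G, so that it matches only because G may serve as a loop.
chr2:74229490-74229505 (minus strand, PDS peak alone): GGGGGGGtGGGGGGGG
chr2:74347323-74347355 (minus strand, both peaks): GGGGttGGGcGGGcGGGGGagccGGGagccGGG

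Across the 7 genes, 25 of 31 control peaks (80.6%, Wilson 95% confidence interval 63.7 to 90.8) overlapped a PDS peak, and 78.0% of all control peaks did. Among the PDS peaks, 25 of 28 (89.3%, 72.8 to 96.3) overlapped a control peak, against 78.6% of all PDS peaks. Both shares included the share of all peaks within their intervals, which cover counting error only. The 6 control peaks without a counterpart were 120 to 540 bp wide and stood at percentiles 4.98 to 60.5 by fold. The 3 PDS peaks without one were 100 to 150 bp wide and lay 241 to 941 bp from a control peak. With a gap of up to 1 kb allowed, no PDS peak of the members was without a control counterpart, and 91.5% of all PDS peaks had one.

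G4 motifs were present in 6 of 31 control peaks (19.4%, Wilson 95% interval 9.19 to 36.3), and 7 of 28 PDS peaks had one (25%, 12.7 to 43.4). The shares over all peaks were 16.1% and 17.2%, within both intervals. Without the DNMT1 peaks the member shares were 12.5% (3 of 24, control) and 23.8% (5 of 21, PDS), so the control share then stood below that of all peaks. In the control list the peaks with a motif belonged to DNMT1 (3), DNMT3B (1), UHRF1 (1) and TET3 (1). In the PDS list they belonged to DNMT1 (2), TET3 (2), DNMT3A (1), DNMT3B (1) and UHRF1 (1). Of the 25 member pairs, 5 had a motif in both peaks, 2 in the PDS peak alone and 0 in the control peak alone. Over all 24633 pairs in which a peak of each list overlapped only the other, 4292 had a motif in both peaks, 645 in the PDS peak alone and 352 in the control peak alone. The 2 member pairs were the DNMT3A upstream site and the alternative start of TET3, where a shift of the peak edge decided whether the motif was counted. Within 1 kb of the peak, a motif was present for 64.5% of the control and 64.3% of the PDS peaks of the members, beside 43.5% and 46.4% of all peaks. The loci differed in the number of motifs offered. The windows searched had 53.6 motifs per 100 kb at DNMT3A, 34.5 at DNMT3B, 32.3 at UHRF1, 28.2 at TET3, 17.4 at DNMT1, 9.20 at TET2 and 8.61 at TET1, and the median over all protein-coding genes was 14.9. DNMT3A had the highest density and no control peak with a motif, and DNMT1 had the most control peaks with one.

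An exact match of the ChIP-exo consensus, searched on both strands, was found in 4 of 31 control peaks (12.9%, Wilson 95% confidence interval 5.13 to 28.9) and 3 of 28 PDS peaks (10.7%, 3.71 to 27.2). It was found in 17.3% of all control peaks and 14.4% of all PDS peaks, within both intervals. The sites were DNMT3A intron 4, DNMT3B intron 1 and UHRF1 intron 2 in both lists and the TET2 site in the control list. All member matches lay more than 1 kb from the start of their gene record and from the canonical start. The matches of DNMT3A and TET2 contained a CpG, those of DNMT3B and UHRF1 did not, and of all matches 40.9% in control peaks and 45.2% in PDS peaks contained one. For comparison with the matches printed above, those of UHRF1 and TET2 are given with 7 flanking bases on either side and the consensus in capitals. No match says only that these letters were absent from a peak.
Consensus of UHRF1, chr19:4911969-4911983 (minus strand): aacctagACACCAGATGGCAGCagtaccc
Consensus of TET2, chr4:106062235-106062249 (plus strand): aatgattTCAGTAGATGGCGCTctttcca

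In base composition, the member peaks had a median GC content of 56.7% (control) and 56.1% (PDS), beside 51% and 53.0% over all peaks. The median ratio of observed to expected CpG was 0.393 and 0.379, beside 0.284 over all peaks of either list. At the upper end stood the promoter of DNMT3B (0.952 in the control list), the EIF3G promoter next to DNMT1 (0.870), the site downstream of TET3 (0.814) and UHRF1 exon 6 (0.794). At the lower end stood the TET1 site (0.0608) and the 600 bp DNMT1 site within S1PR2 (0.0967). A 120 bp control peak downstream of TET3 held no CpG.

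**Figure D3:**
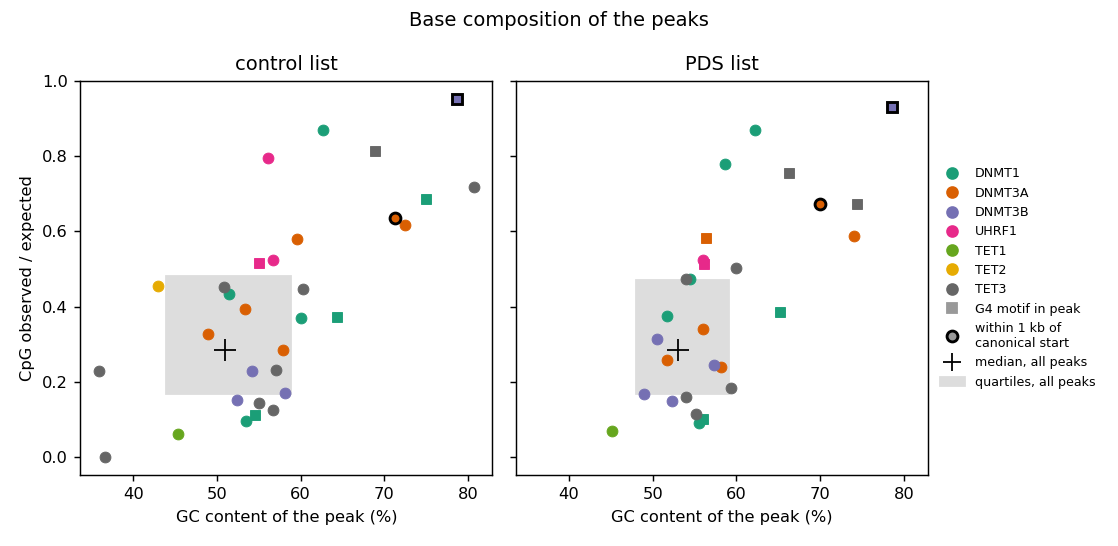
GC content (%) against the ratio of observed to expected CpG for each member peak, with the control list on the left and the PDS list on the right. Colours give the gene, squares hold a G4 motif, black rims mark peaks within 1 kb of a canonical start, and the cross and grey box are the median and quartiles of all peaks of the list. The DNMT3B promoter stands at the upper right in both lists (0.952 and 0.931) and the TET1 peak near the bottom (0.0608 and 0.0676).

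The 25 shared sites of the members formed one-to-one pairs. From the control to the PDS list their percentile by fold was higher in 13 pairs and lower in 12, with a median difference of 0.90 percentile points (quartiles -13.6 and 22.5). Over all 24633 pairs 51.4% stood higher by fold, and the median was 0.685 (quartiles -18.5 and 20.6). The member differences ranged from -51.1 at the site downstream of TET3 to 83.9 at the upstream site of DNMT1. By p-value 15 member pairs stood higher and 10 lower, and 56.3% of all pairs stood higher. The member differences by p-value were smaller, with quartiles of -4.18 and 11.3, a median of 3.30 and a maximum of 28.9. The median over all pairs was 2.30. The measures went in opposite directions in 16 of the 25 pairs (64.0%), and in 62.2% of all pairs. The sites that stood more than 50 percentile points higher in the PDS list by fold were the DNMT1 upstream site, the 600 bp DNMT1 site within S1PR2, the TET3 site nearest to the start and the DNMT3B intron 7 site. Of these 4, only the S1PR2 site also stood higher by p-value, and only slightly (percentiles 65.0 and 67.1). The promoter peaks of the de novo methyltransferases differed in opposite directions by fold, with percentiles of 84.6 (control) and 90.8 (PDS) at DNMT3A and 67.6 and 21.0 at DNMT3B. Without values per replicate, no error can be given for any of these differences. The PDS peak was wider in 11 member pairs and the control peak in 13, while among all pairs those with a wider PDS peak (12230) outnumbered those with a wider control peak (11543). Positions lay on a grid of 60 bp in the control list versus 50 bp in the PDS list, so widths and edges are known only to that step.

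**Figure D4:**
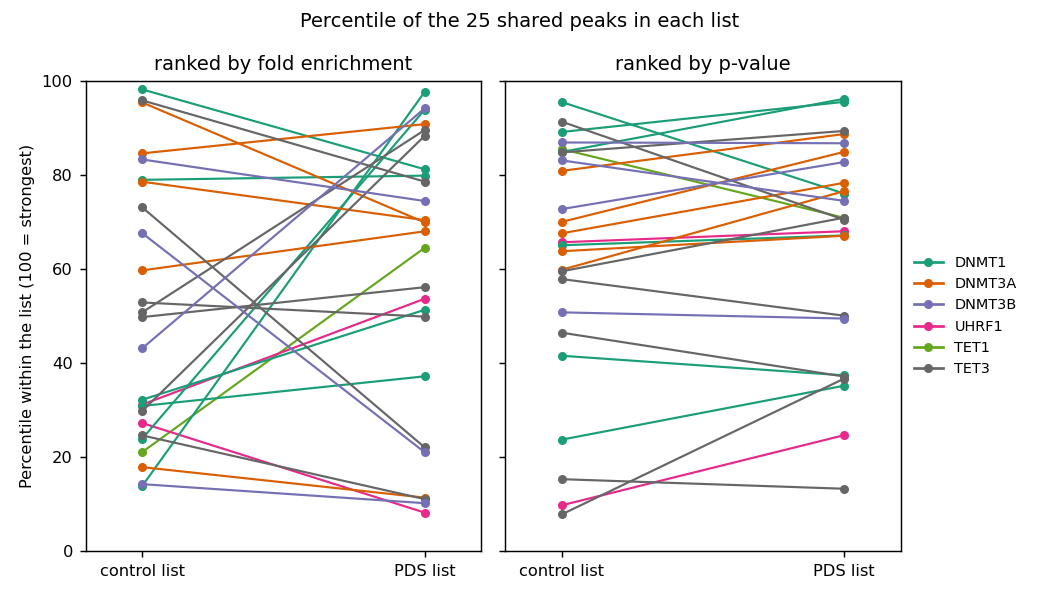
Percentile of the 25 shared sites of the members within the control and the PDS list, ranked by fold enrichment (left) and by p-value (right), with 100 for the strongest peak. Each line joins the peaks of 1 site, coloured by gene. Lines cross widely by fold, with differences from -51.1 to 83.9, and less by p-value, with differences from -20.9 to 28.9.

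A further 29 genes of DNA methylation, listed by role, gave a background for the promoters. A promoter peak, within 1 kb of the start of the gene record, was present in both lists for 8 of them (27.6%), in 1 list only for 0 and in neither for 21. They included 3 of 7 readers of methylated CpG, 2 of 4 genes of cofactor metabolism, 1 of 6 partners of maintenance methylation, 1 of 4 readers of unmethylated CpG and 1 of 6 base excision or TET partners. DNMT3L, the catalytically inactive partner of the de novo enzymes, and TRDMT1, a tRNA methyltransferase of the family, had none. By the start of the gene record, the strongest control promoter peak by fold was that of AHCY, which hydrolyses the S-adenosylhomocysteine left by methyl transfer, at rank 172 in the control list versus 612 in the PDS list. PCNA, the replication clamp, ranked 478 and 7512, with 2 G4 motifs in either peak. MBD2, a methyl-CpG-binding repressor, ranked 4710 and 30486. The uracil glycosylase gene SMUG1 ranked 16756 and 27000. CXXC1, which binds unmethylated CpG, was the weakest of the named genes in the control list (rank 29805) and ranked 8110 in the PDS list. The DNMT3A and DNMT3B promoter peaks, at ranks 5097 and 10707 of the control list, stood below the first 3 and above the other 2. All these ranks are by fold, and ranks by p-value are not given for the 29 genes. Over all one-to-one pairs, fold and p-value went in opposite directions in 62.2%. With canonical starts, 6 of the 29 genes had a promoter peak in either list, beside 22.8% (control) and 21.6% (PDS) of all genes. AHCY, PCNA and ZBTB4 were then without one, and IDH1 had one.

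**Figure D5:**
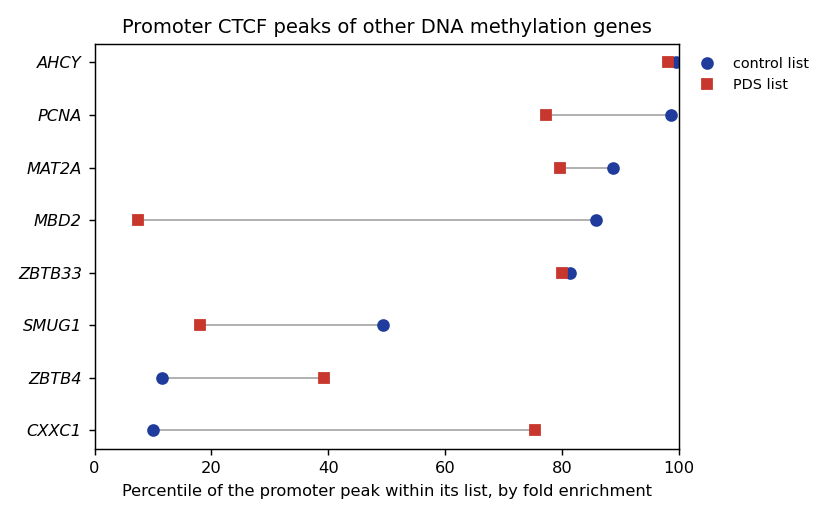
Percentile by fold of the promoter CTCF peak of the 8 other DNA methylation genes that had one, in the control list (blue circles) and the PDS list (red squares), with 100 for the strongest peak. AHCY stands near the top of both lists (99.5 and 98.1), and MBD2 has the widest distance between its points (85.8 and 7.39).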

How the data were processed

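The authors aligned reads to hg19 with Bowtie2 2.2.3 and called peaks with PePr on both replicates of a condition over IgG. The deposited lists give a score (the fold scaled to its maximum, not used), the fold enrichment over IgG as computed by the authors, and the p-value that the authors obtained with PePr. Adjusted p-values were not used. The methods state a p cutoff larger than the largest p of the lists, 1.00e-05, and the labels and methods differ on single-end against paired-end reads. In each list 1 peak lay on a sequence without a reference and was left out of motif searches. Here, genes and canonical transcripts came from GENCODE release 44 on GRCh37, ranks were taken within a list, and peaks were shared at an overlap of 1 bp. Shares have Wilson 95% intervals. The members and gene lists were chosen with earlier results of these data known. All 7 genes and every peak at them were described, with the genes next to a peak. Of 29 other genes, those with a promoter peak in 1 list only (there were none) and, per role, the gene with the strongest control promoter peak were named. A gene of that list and a sequence are not reported here. Motif and overlap searches were tested on simulated data. The software was samtools 1.23.1 and Python 3.11.15 (matplotlib 3.10.9, pyfaidx 0.9.0.4, scipy 1.17.1, pandas 2.3.3, numpy 2.4.6). The other experiments of the study were not analysed here.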

Additional observations from a re-analysis of the deposited data

How the results depend on the processing

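Of 58 alternative values, 46 stayed within 1.5 times the reported count or within the interval of the reported share or median, and 12 did not. Counting only peaks that overlap the gene record gave 20 control peaks instead of 31, and a window of 50 kb gave 46 control peaks instead of 31 and 47 PDS peaks instead of 28, so that the list with more peaks changed. The median difference in percentile by fold was 6.27 instead of 0.90 with peaks in the gene record alone. With the 50% of peaks of smallest p, 20 control and 18 PDS peaks were left, of which 90% and 100% were shared, beside 82.9% and 83.5% of all such peaks. With a gap of up to 1 kb, 83.9% of control and 100% of PDS peaks had a counterpart, beside 83.1% and 91.5% of all. The share with a G4 motif was 38.7% (control) and 42.9% (PDS) with loops of 1 to 12 nt, beside 27.0% and 29.4% of all peaks. It was 87.1% and 82.1% with runs of 2 or more G, beside 77.2% and 83.0%, and 9.68% and 7.14% in the central 200 bp, beside 9.72% and 10.1%. With 1 mismatch in the consensus the shares were 38.7% (control) and 35.7% (PDS), beside 54.3% and 46.2% of all peaks. Apart from the motif definitions' own construction, the cause of these changes was not tested. The canonical transcript span, the canonical start (also for other genes), the shares without DNMT1 and the widened peaks were added after seeing the data. They moved none of the values they were applied to beyond these limits. With the canonical transcript span, 26 control and 23 PDS peaks remained. The peaks lost were those upstream of DNMT1, all more than 20 kb from its canonical transcript. Without the DNMT1 peaks the control share with a G4 motif was 12.5%, within the interval but below the 16.1% of all control peaks. No paired analysis was possible because the peak caller merged the replicates of a condition into 1 list. No replicate could be left out either.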
